A study of Mus musculus with 8 samples.

Results

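The transcriptome of 66cl4, a mouse mammary tumour cell line, was compared with those of the 3 other lines sequenced beside it, 4T1, 4T1.2 and 67NR. Genes were taken as set apart in 66cl4 when both of its libraries lay above, or both lay below, all 6 libraries of the other lines, in counts scaled to library size and composition (normalised CPM). Of 13924 genes tested, 5370 (38.6%) met this rule, 2825 above the range (20.3%) and 2545 below it (18.3%). Each gene was also tested for a difference between 66cl4 and the mean of the 3 other line means, by an edgeR quasi-likelihood fit over the 8 libraries.

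The 4 lines are related lines from the mammary tumour of a BALB/c mouse, and 4T1.2 was derived from 4T1, so that the 4 libraries of that pair do not stand for unrelated lines. All were grown untreated in culture, with no host cells, and 2 biological replicates of total RNA were sequenced from each line. The labels spell the line 66c14 and the study's design text 66cl4, and the second spelling is used here. In mice, 4T1 and 4T1.2 spread readily to distant organs, whereas 66cl4 and 67NR are the lines of lower metastatic potential.

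Interferons are cytokines that cells release when they sense viral or misplaced nucleic acid. They act through receptors and the JAK kinases on transcription factors, which bind elements in the promoters of interferon-stimulated genes and raise antiviral proteins such as the OAS, MX and IFIT families. Complement is a cascade of secreted proteases and regulators that marks cells for clearance, made mainly by liver but also by fibroblasts and tumour cells.

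The libraries held 37159840 to 66269681 counts each, 48608212 and 46127747 of them in 66cl4 replicates 1 and 2. Within a line the correlation of log2 CPM was 0.995 to 0.996, and between libraries of different lines it was 0.779 to 0.985. The 66cl4 libraries differed from each other in a subset of genes, mainly long, AT-rich transcripts. Of the 10061 genes that averaged 5 CPM or more in 66cl4, 64 were more than 2-fold higher in replicate 1 and 0 were more than 2-fold higher in replicate 2, whereas the other lines had 2 to 6 such genes in both directions together. The median length of these 64 genes was 6711 bases against 2953 for all 10061, and the median GC content of the 57 with a matching transcript was 39.5% against 49.4%. Short mitochondrial genes were also among the 64, such as ND4 (1378 bases) and COX1 (1545 bases). Of the 64, 4 were among the genes set apart in 66cl4, against 38.6% of all genes tested. The rule needs both 66cl4 libraries outside the range, so genes that differ between them are less likely to meet it. This low count is thus no measure of the effect of the difference on the results. The epithelial markers Cdh1 and Epcam stood at no more than 0.155 CPM in 66cl4 and at no more than 0.0973 CPM in 67NR, so that these defining markers of epithelium were nearly absent from both lines, while Krt8, a keratin of simple epithelium, stood at 602 and 606 CPM in 66cl4. Of 12 leucocyte markers, Ptprc, Cd3e, Adgre1, Ly6g and S100a9 had 0 counts in both 66cl4 libraries, and the summed level of the list was 18 to 22.3 CPM in 66cl4 against 4.11 to 24.2 CPM in the other libraries, nearly all of it in 66cl4 from Lyz2. Markers of endothelium summed to 0.491 to 0.597 CPM in 66cl4 and 0.355 to 9.81 CPM elsewhere, and those of red cells and fat to 0.155 to 0.179 CPM and 0.159 to 0.908 CPM. In bulk RNA, fewer cells that express a gene and less RNA of it per cell cannot be told apart.

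66cl4 and 67NR were the lines most often set apart (the plot of genes outside the range by line). Both libraries of 67NR lay outside the 6 libraries not their own at 4880 genes (35.0%), those of 4T1 at 3196 (23.0%) and those of 4T1.2 at 3083 (22.1%). 66cl4 had the most genes far above the range. With 0.5 CPM added to every value, its nearer library lay at least 4-fold above the highest other library at 83 genes (0.596%) and at least 4-fold below the lowest at 38 (0.273%). The corresponding counts were 49 and 40 for 67NR, 25 and 3 for 4T1, and 6 and 6 for 4T1.2.

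**Figure D1:**
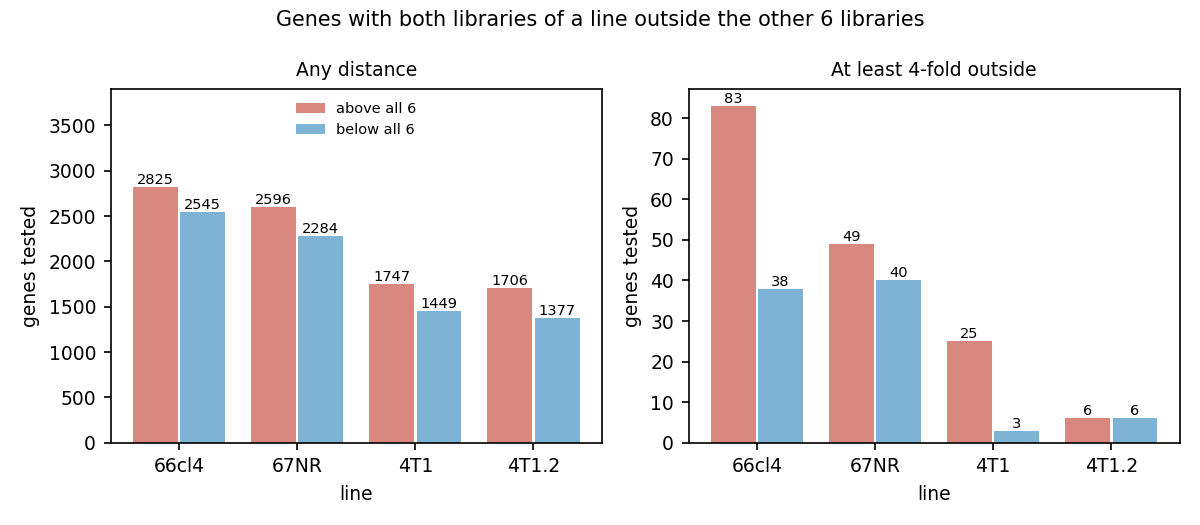
Number of genes tested (y axis) for which both libraries of a line (x axis) lay above or below all 6 other libraries, at any distance (left) and at least 4-fold outside with 0.5 CPM added (right). 66cl4 had 2825 and 2545 genes at any distance and 83 and 38 at 4-fold or more, the most of the 4 lines in each group but the last, where 67NR had 40.

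In most cases the 66cl4 libraries stepped only just out of the range. The median distance on the log2 scale was 0.27 for the genes above and 0.20 for those below, and 643 and 364 genes lay at least 1.5-fold outside. The nearest other library came from 67NR for 1895 of the 2825 genes above and for 1629 of the 2545 below. At the limit, the lower 66cl4 library had 107.861 CPM of Kdm5c against 107.855 CPM in the highest other library, whereas Pds5b, at 145.129 against 145.135 CPM, fell just short of the rule. On the low side Stk4 just met the rule, at 53.8515 CPM in the higher 66cl4 library against 53.8567 CPM in the lowest other, and Siva1 just missed it, at 87.9101 against 87.9069 CPM.

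Over all genes tested, 4705 were called higher in 66cl4 than the mean of the 3 other lines (33.8%) and 4384 lower (31.5%), at an edgeR adjusted p under 0.05. The range rule and this test read the same counts, so their overlap is given as a description only. It held 2755 of the genes above and 2456 of those below, while 159 genes outside the range were not called and 3878 called genes were not outside it. A further 858 of the 6228 genes outside the range in the whole matrix were not tested, 417 for low counts and 441 by annotation (predicted, ribosomal or unmatched genes).

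Of the lists described, which were chosen with earlier results of these data known, interferon-stimulated genes had the highest share above the range. Of 35 genes on the list, 31 lay above all 6 other libraries and 1 below, against 20.3% and 18.3% of all genes tested. In the edgeR test 33 were called higher and 1 lower, against 33.8% and 31.5% of all genes. The median log2 fold change of the list was 1.96, against 0.01 over all genes tested. Each 66cl4 library alone gave nearly the same picture, with 32 of the 35 above all 6 others in replicate 1 and 31 in replicate 2. Replicate 1 was the higher of the pair for 34 of the 35 genes, with a median log2 ratio of 0.36 against -0.01 over all genes, and the part of this in the results was not tested. Without replicate 1 the test called 32 of the list higher and 1 lower, with a median log2 fold change of 1.78, and without replicate 2 it called 33 and 1, with a median of 2.32.

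**Figure D2:**
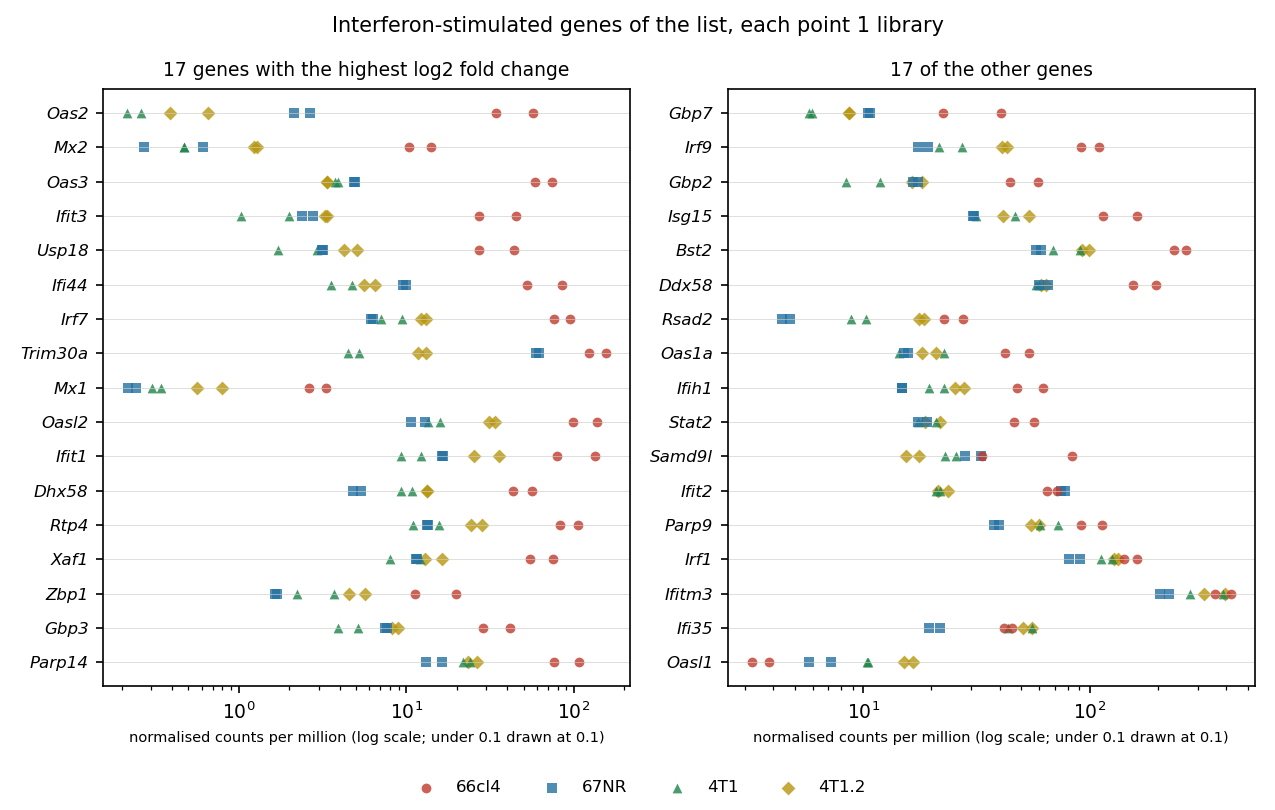
Normalised CPM of 34 of the 35 interferon-stimulated genes in each of the 8 libraries (x axis, log scale), 1 row per gene in order of log2 fold change, with colour and shape for the line. In 30 rows both 66cl4 points lie to the right of all others, and Oasl1, in the bottom row of the right panel, is the gene with both to the left.

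The 2′-5′ oligoadenylate synthetases, which make the second messenger that activates RNase L, differed widely among themselves. Oas2 (chr5:120730333-120749886, mm10) stood at 57.2 and 34.2 CPM in 66cl4, 2.67 and 2.12 in 67NR, 0.262 and 0.216 in 4T1 and 0.652 and 0.388 in 4T1.2. Both 66cl4 libraries were thus more than 10 times any other, and the log2 fold change was 6.09 ± 0.21 (SE, edgeR adjusted p = 6.02e-09). Its neighbour Oas3 (chr5:120753098-120777684) gave 74.3 and 58.6 CPM in 66cl4 against 3.35 to 4.94 CPM in the other 6 libraries, a log2 fold change of 4.06 ± 0.09 (edgeR adjusted p = 5.12e-10). Oas1a was 42.1 to 54.3 CPM against 14.4 to 22.8 CPM, but 47.6% of the 75-base stretches in its transcript are shared with other genes, so its reads may be shared with copies beside it. Oasl1, an OAS-like inhibitor of Irf7 translation, went the other way. It stood at 3.82 and 3.21 CPM in 66cl4 against 5.76 to 16.5 CPM elsewhere, and fell by 1.54 ± 0.14 on the log2 scale (edgeR adjusted p = 5.92e-06), whereas its paralogue Oasl2 was higher, with a log2 fold change of 2.72 ± 0.12.

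Among the other effectors, Mx2, a dynamin-like GTPase that restricts viruses, stood at 14 and 10.3 CPM in 66cl4 and at 0.273 to 1.29 CPM in the other libraries (log2 fold change 4.20 ± 0.18). Ifit3, an RNA-binding antiviral protein, stood at 44.9 and 27.2 CPM against 1.03 to 3.36 CPM (3.95 ± 0.20), with 41.1% of its 75-base stretches shared with its near-copy Ifit3b and others. Usp18, the protease that removes ISG15 and damps the receptor, was 44.2 and 27.0 CPM against 1.72 to 5.05 CPM (3.46 ± 0.19). Isg15 itself, a ubiquitin-like modifier, was less far from the range, at 162 and 114 CPM against 30.5 to 54.1 CPM (1.84 ± 0.16). For each of these 4 genes the nearest library was from 4T1.2.

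The transcription factors of the pathway were higher too. Irf7, the factor that drives interferon production in a second wave, stood at 95.2 and 75.9 CPM in 66cl4 and at 6.14 to 13.1 CPM elsewhere, a log2 fold change of 3.31 ± 0.11 (edgeR adjusted p = 5.62e-09). Irf9 was 91.7 to 111 CPM against 17.4 to 43.2 CPM, and Stat2 46.1 to 56.6 CPM against 17.4 to 21.7 CPM. Their log2 fold changes were 1.92 ± 0.10 and 1.42 ± 0.11. The members of the list outside this pattern were few: Ifit2 and Ifitm3 were called higher without leaving the range, though Ifitm3 not without 66cl4 replicate 1 or 67NR replicate 1 (Ifit2 64.8 to 72.1 CPM in 66cl4 and 75 to 77.9 CPM in 67NR), and Ifi35 was not called (0.20 ± 0.10, edgeR adjusted p = 0.122). Samd9l lay only just above the range, at 84.0 and 33.4 CPM in the 66cl4 replicates with 33.1 CPM in the nearest 67NR library.

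The genes upstream were described with a list of interferons, receptors and sensors put together after these values had been seen. No interferon gene passed the filter on counts. Ifnb1 had 8 counts in each 66cl4 library, 6 in each 67NR library and 0 or 1 in the others, which is too few to compare. Of the 17 genes of this list that were tested, 13 were called higher and 2 lower, against 33.8% and 31.5% of all genes, and 11 lay above the range and 1 below, against 20.3% and 18.3%. The shifts were small: tested against a log2 fold change of 1, 0 were called higher and 0 lower. Ifnar1, a chain of the type I receptor, was 114 to 116 CPM in 66cl4 against 55.3 to 81.1 CPM, with a log2 fold change of 0.74 ± 0.06, and Jak1 was 337 to 339 CPM against 173 to 218 CPM (0.76 ± 0.06). Jak2 was lower than the mean of the lines (-0.38 ± 0.07) though inside their range, and the call was lost when 67NR and the mean of the 4T1 pair were weighted equally (0.01), while Ifngr2, a chain of the interferon-gamma receptor, lay below the range (-0.39 ± 0.08).

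Promoter sequences are shown for 6 list members that lay above the range. They were taken only from members whose promoter held paired GAAA half-sites, which interferon-activated factors are known to read. The sequences are from RefSeq on GRCm38.p6 (the assembly of mm10), 5′ to 3′ on the strand of the gene, from 250 bases before to 50 after the first start site listed. Capitals mark every match to GAAANNGAAA on either strand.
Oas3 promoter: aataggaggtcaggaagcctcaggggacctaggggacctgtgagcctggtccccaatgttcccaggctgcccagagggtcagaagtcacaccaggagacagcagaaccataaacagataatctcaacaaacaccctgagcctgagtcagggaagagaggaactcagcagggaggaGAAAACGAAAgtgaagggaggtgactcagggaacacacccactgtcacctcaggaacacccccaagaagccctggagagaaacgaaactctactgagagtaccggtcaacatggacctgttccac
Ifit3 promoter: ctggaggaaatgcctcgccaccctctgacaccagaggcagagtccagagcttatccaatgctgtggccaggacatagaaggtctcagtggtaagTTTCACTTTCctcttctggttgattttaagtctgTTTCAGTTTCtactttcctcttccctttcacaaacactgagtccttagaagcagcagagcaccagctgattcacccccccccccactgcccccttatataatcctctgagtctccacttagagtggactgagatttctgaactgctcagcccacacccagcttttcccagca
Ifit1 promoter: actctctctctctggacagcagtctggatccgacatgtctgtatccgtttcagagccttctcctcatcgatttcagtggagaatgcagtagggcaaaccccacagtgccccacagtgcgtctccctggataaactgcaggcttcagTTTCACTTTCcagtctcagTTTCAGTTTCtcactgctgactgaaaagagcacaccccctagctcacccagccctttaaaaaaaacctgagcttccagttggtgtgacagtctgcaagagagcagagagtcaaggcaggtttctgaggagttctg
Isg15 promoter: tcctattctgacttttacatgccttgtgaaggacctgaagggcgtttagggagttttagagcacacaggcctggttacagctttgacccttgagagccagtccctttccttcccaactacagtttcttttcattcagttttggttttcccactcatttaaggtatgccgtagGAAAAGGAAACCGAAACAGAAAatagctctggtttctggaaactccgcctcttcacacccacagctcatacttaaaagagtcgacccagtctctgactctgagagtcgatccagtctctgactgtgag
Trim30a promoter: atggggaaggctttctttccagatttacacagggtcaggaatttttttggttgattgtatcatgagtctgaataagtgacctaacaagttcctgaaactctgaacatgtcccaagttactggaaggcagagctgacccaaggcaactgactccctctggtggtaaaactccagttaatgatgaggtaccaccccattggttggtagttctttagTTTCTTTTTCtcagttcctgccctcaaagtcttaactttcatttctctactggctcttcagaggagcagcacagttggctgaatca
Oas1a promoter: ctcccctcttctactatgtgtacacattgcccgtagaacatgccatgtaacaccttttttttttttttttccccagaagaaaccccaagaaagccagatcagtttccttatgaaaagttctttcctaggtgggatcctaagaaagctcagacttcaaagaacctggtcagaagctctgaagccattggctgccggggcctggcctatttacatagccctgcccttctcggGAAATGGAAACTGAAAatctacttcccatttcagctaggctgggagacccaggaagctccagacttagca
They lie at chr5:120777610-120777909 (minus strand), chr19:34583279-34583578 (plus), chr19:34640639-34640938 (plus), chr4:156200769-156201068 (minus), chr7:104465144-104465443 (minus) and chr5:120907476-120907775 (minus). The matches begin 36 bases before the start in Trim30a and 156 and 122 bases before it in Ifit3, and Isg15 holds 3 overlapping matches. Of the 21 list members above the range with a promoter in the table, 14 (66.7%) held the motif. Of all 25 list genes with a promoter, above the range or not, 15 (60%) held it. The motif was in 332 of 10928 promoters of tested genes (3.04%). It was in 79 of 2227 (3.55%) among the genes above the range that are not on the list. Genes were listed as interferon-stimulated, so a higher share than in other genes follows from the choice of list. Whether the motif goes with the level of these genes was not tested. The motif was chosen after the values were seen, a match is not a measured binding site, and it can overlap other purine-rich motifs.

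6 other motifs were counted in the promoters of all genes set apart. TATAAA on either strand was present in 7.61% of promoters of genes above the range, 7.5% of those below and 7.70% of all tested. CCAAT stood at 37.9%, 38.4% and 39.4%, GGGCGG at 65.1%, 59.6% and 62.6%, and CACGTG at 8.14%, 12.1% and 9.99%. TGANTCA was found in 6.58%, 5.17% and 5.45%, and CATTCC in 13.3%, 11.9% and 12.2%. Both groups and all genes tested had a median of 20 CpG dinucleotides per promoter, while the 59 promoters of genes at least 4-fold above the range had a median of 7 and the 30 of genes at least 4-fold below had a median of 8.5. A promoter was found in the table for 10928 of the 13924 genes (78.5%).

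Genes of several interferon-inducible clusters stood side by side on the chromosomes. Runs joined neighbouring tested genes outside the range in the same direction, also called with an absolute log2 fold change of at least 1. These limits were met by 2086 of the 13924 genes tested. There were 63 runs of 3 or more genes, 47 above and 16 below, with 228 of the 2086 genes. Whether a random order of genes would give fewer runs was not tested. The longest run was 7 genes above the range from Ifi27 to Serpina1e (chr12:103434189-103956897), mostly Serpina1 genes. Of the 75-base stretches of Serpina1b and Serpina1d, 25.1% and 37.1% are shared with other genes, so their counts are uncertain. A run of 6 Hoxb genes (chr11:96271330-96347930) also lay above it. Runs of interferon-inducible clusters above the range included 6 genes from Ifit3 to Pank1 (chr19:34583119-34883423), 6 from Gbp8 to Gbp11 (chr5:105012513-105346476), 5 from Gbp5 to Gbp2 (chr3:142496934-142638008) and 5 from Tgtp1 to Olfr56 (chr11:48985329-49135387). The guanylate-binding protein Gbp4, a GTPase that attacks the vacuoles of intracellular microbes, stood at 125 and 115 CPM in 66cl4 and at 7.66 to 35.4 CPM elsewhere, with a log2 fold change of 2.55 ± 0.08. Its neighbour Gbp10 was 15.1 to 24.5 CPM against 1.39 to 2.98 CPM, but 75.5% of its 75-base stretches are shared with other genes. The run of 6 Sp100-related genes (chr1:85088139-85709998), which encode nuclear body proteins, also holds near-copies. Sp110 and A530032D15Rik share 39.2% and 24.1% of their 75-base stretches with other genes, so counts of this run cannot be assigned to single genes with certainty. In the run of 6 Apol genes (chr15:77388217-77736382) the share was 8.03% for Apol7a, 6.56% for Apol10a, 1.51% for Apol10b and 0% for Apol9a. It was not measured for Apol11b and Apol9b.

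Antigen presentation genes were found on both sides of the range. Of 22 genes tested, 6 were called higher and 8 lower, against 33.8% and 31.5% of all genes. Above the range lay 4 (18.2%) and below it 4 (18.2%), against 20.3% and 18.3% of all genes, so the list as a whole was near the background. The classical class I heavy chains were among the lower: H2-D1 stood at 217 and 201 CPM in 66cl4 against 420 to 820 CPM (log2 fold change -1.47 ± 0.10, edgeR adjusted p = 1.19e-06), H2-K1 at 147 and 136 CPM against 221 to 514 CPM (-1.26 ± 0.11), and B2m, their shared light chain, at 641 and 586 CPM against 817 to 1672 CPM (-1.01 ± 0.11). The peptide transporter genes were the higher: Tap1 was 86.1 to 98.7 CPM against 20.6 to 67.8 CPM (1.44 ± 0.09) and Tap2 152 to 155 CPM against 45.0 to 80.8 CPM (1.28 ± 0.08). Nlrc5, the transactivator of class I genes, was nearly silent. It stood at 0.309 and 0.290 CPM in 66cl4, 23.4 and 22.7 in 67NR, 11.2 and 8.59 in 4T1 and 14.1 and 11.1 in 4T1.2, a log2 fold change of -5.56 ± 0.23 (edgeR adjusted p = 2.52e-08).

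More complement genes were called higher than lower in 66cl4, proteases and inhibitors among them. Of 27 genes on the list 16 were tested, of which 11 were called higher and 3 lower, against 33.8% and 31.5% of all genes, and 10 lay above the range and 1 below, against 20.3% and 18.3%. Masp1, a protease of the lectin pathway, stood at 174 and 154 CPM against 14 to 112 CPM (2.28 ± 0.08), with 67NR the nearest line. The C1 proteases C1ra and C1s1 were also close to 67NR: C1s1 was 95.2 to 107 CPM in 66cl4, 84.3 to 88.3 CPM in 67NR and 1.98 to 7.45 CPM in the 4T1 pair. The 75-base stretches of C1ra and C1s1 are shared with other genes at 42.4% and 28.0%, so that their counts are uncertain. C7, a part of the membrane attack complex, was at 0.641 and 0.536 CPM in 66cl4 and at 0 counts in all 6 others. Serping1, the C1 inhibitor, was low but distinct, at 3.14 and 3.04 CPM against 0 to 0.393 CPM (5.59 ± 0.28). C3, the hub of the cascade, was not raised: at 8.33 and 7.12 CPM it was close to 4T1 (8.32 and 6.60 CPM) and below the 40.6 to 41.0 CPM of 67NR, and was called lower than the mean (-1.05 ± 0.12). Without 66cl4 replicate 1 or 2 the counts of complement genes called higher were 10 and 11. Many of the genes called higher had low counts in other libraries. With at least 10 counts asked for in every library, 9 genes were left, 5 called higher and 3 lower. The median log2 fold change of the list was then 0.65, against 2.18 before.

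**Figure D3:**
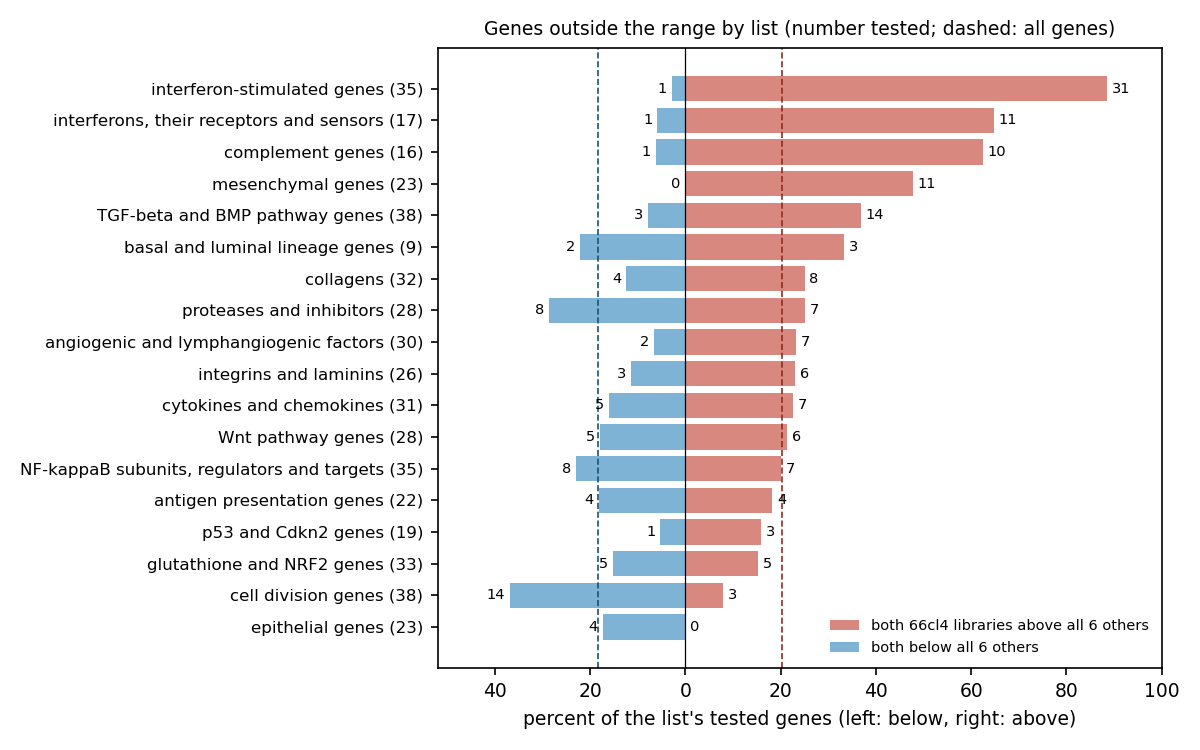
Percent of the tested genes of each list (number tested in brackets) with both 66cl4 libraries above all 6 others (right, red) or below (left, blue), with the number of genes beside each bar and the share of all genes tested as dashed lines at 20.3% and 18.3%. Interferon-stimulated genes reach 31 of 35 above and cell division genes 14 of 38 below. All lists were chosen with earlier results of these data known, and those of NF-kappaB genes and of interferons, receptors and sensors were put together after the values were seen.

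Of the 20 genes furthest above the range, Oas2 and Oas3 were from the interferon list (the plot of genes most set apart). The 20 were ranked by the distance of the nearer 66cl4 library from the range with 0.5 CPM added, a ranking chosen after the values were seen, so they are given as a description. Lncenc1 (chr13:97434970-97497664), a long non-coding RNA known from embryonic stem cells, stood at 528 and 519 CPM in 66cl4, 3.85 and 4.88 in 67NR, 1.88 and 1.62 in 4T1 and 1.32 and 1.39 in 4T1.2. The nearer 66cl4 library was 96.6-fold above the highest other. Mid2 (chrX:140664304-140767715), a microtubule-associated ubiquitin ligase, stood at 37.4 and 36.4 CPM against 0 to 0.159 CPM, a distance of 56.0-fold. Lpl (chr8:68880555-68906932), which hydrolyses triglycerides in lipoproteins, and Vldlr (chr19:27216480-27254231), a receptor that takes up such particles, were both high: Lpl at 83.4 and 73.0 CPM against 0.0176 to 2.07 CPM, and Vldlr at 44.5 and 42 CPM against 0 to 0.982 CPM.

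Also among these 20 was Sema3c (chr5:17574816-17730268), a guidance cue that binds neuropilins and plexins, at 276 and 188 CPM in 66cl4, 9.72 and 10.7 in 67NR and 0.712 to 1.37 in the 4T1 pair. F13a1, the transglutaminase that cross-links fibrin, was 62.1 and 53.7 CPM against 0.632 to 3.19 CPM (log2 fold change 5.01 ± 0.16, edgeR adjusted p = 3.92e-09). Igf2, an insulin-like growth factor, stood at 42.7 and 41.0 CPM against 0.0983 to 3.25 CPM. Dock11, an activator of the GTPase CDC42, stood at 28.6 and 17.6 CPM against 0 to 0.151 CPM, and Hs3st1, a heparan sulphate sulphotransferase, at 28.8 and 26.5 CPM against 0.0164 to 0.873 CPM. The nearest library was from 67NR for Sema3c, Igf2 and Hs3st1 and from 4T1 for F13a1 and Dock11.

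**Figure D4:**
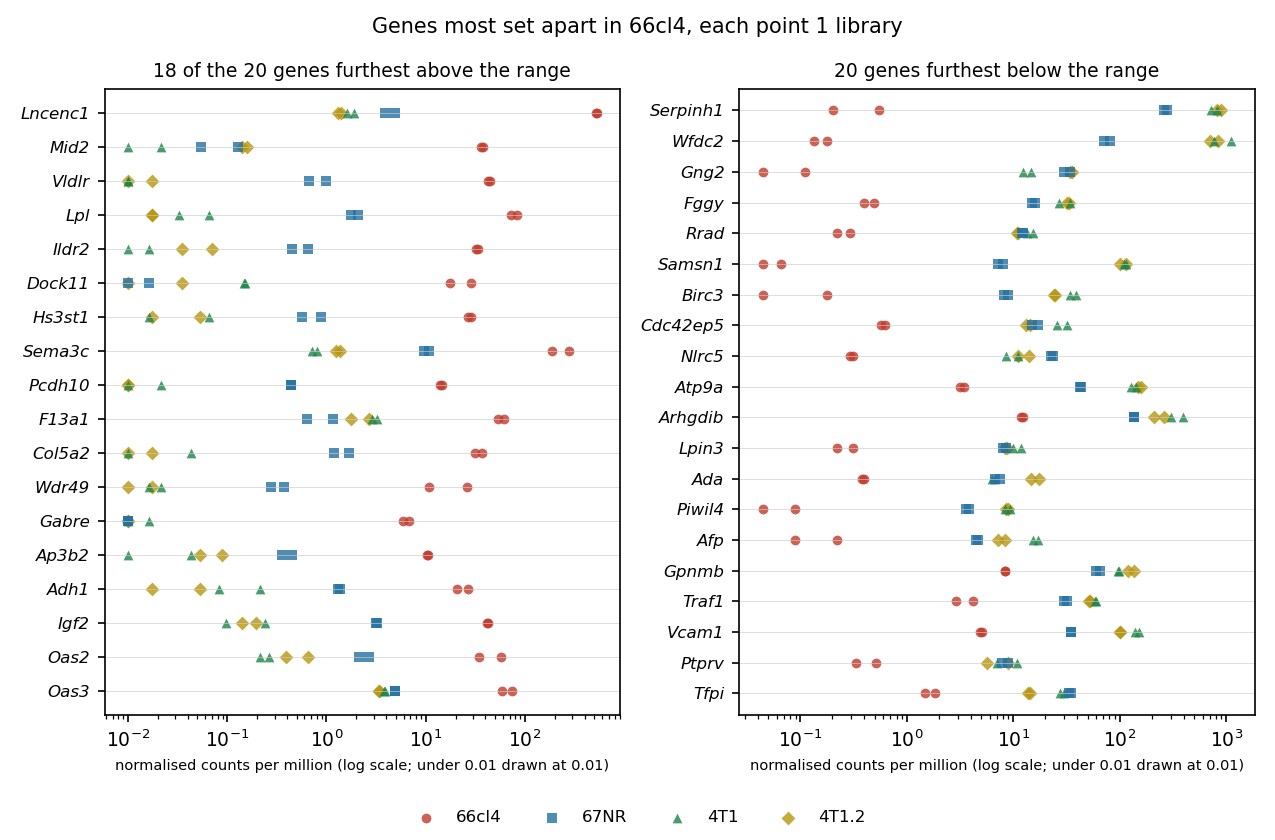
Normalised CPM in each of the 8 libraries (x axis, log scale) of 18 of the 20 genes furthest above (left) and the 20 furthest below (right) the range of the other lines, 1 row per gene, with colour and shape for the line. Lncenc1 tops the left panel at 528 and 519 CPM in 66cl4 and Serpinh1 the right panel at 0.552 and 0.201 CPM.

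A few genes were at or near 0 counts in every library but those of 66cl4. With at least 1 CPM in both 66cl4 libraries and no more than 3 counts in any other library, 9 genes were found, among them Gabre, Dmd, Hoxc9, Postn, Aldh1a1, Cyp4a12b, Cadm2 and Myoc. Of the 75-base stretches of Cyp4a12b, 41.3% are shared with other genes, so its counts are uncertain. Gabre, a GABA-A receptor subunit, had 309 and 264 counts against 0 or 1, Dmd, the dystrophin gene, 127 and 150 against 0 or 1, and Postn, a matricellular protein of stroma, 151 and 106 against 1 to 3. The fitted fold changes of these genes depend on the small count that edgeR adds and are not given.

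On the low side, Serpinh1 (chr7:99345375-99353239), the chaperone HSP47 that folds procollagen, was the most distant. It stood at 0.552 and 0.201 CPM in 66cl4, 278 and 258 in 67NR, 720 and 819 in 4T1 and 814 and 894 in 4T1.2, a log2 fold change of -10.53 ± 0.25 (edgeR adjusted p = 5.15e-10). None of the 75-base stretches of its longest transcript occur in another gene's transcripts. Wfdc2 (chr2:164562715-164568510), a secreted protease inhibitor of epithelia, followed at 0.177 and 0.134 CPM against 71.5 to 1117 CPM. Gng2, a G protein gamma subunit, had 0.0442 and 0.112 CPM against 12.2 to 35.5 CPM, and Arhgdib, a regulator of small GTPases best known in leucocytes, 12.2 and 11.9 CPM against 135 to 395 CPM. In each of these genes both 66cl4 libraries were at least 10-fold below the lowest of the others. Of the 75-base stretches of Gng2, 21.9% are shared with other genes.

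The largest fitted falls were mostly of another kind. Among the 12 were Procr, Nptx1, Tgfa, Galnt3, Scn8a, Ramp1, Large2, Bend4, Arhgap32 and Rab6b, all at 0 counts in both 66cl4 libraries, at no more than 0.164 CPM in 67NR and at 12.6 CPM or more in each library of the 4T1 pair. Tgfa, a ligand of the EGF receptor, stood at 62.8 to 103 CPM in the 4T1 pair and at 0.0819 and 0.0162 CPM in 67NR. Among the 12 largest fitted rises, Pard3b, Cldn1, Hoxb7, Pax3, Slc6a17 and Pcdh10 were likewise at no more than 0.0216 CPM in the 4T1 pair. Cldn1, a tight junction claudin, stood at 65.0 and 60.0 CPM in 66cl4 and 13.8 and 13.0 in 67NR, and Hoxb7, a homeobox factor, at 37.9 and 39.6 CPM and 27.4 and 29.6 CPM. The size of these folds depends on the small count that edgeR adds, and none is given.

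The 3 genes with at least 1 CPM in each of the 6 other libraries and no more than 3 counts in either 66cl4 library were Samsn1, Ltc4s and Ccnb1ip1. Samsn1, an adaptor that restrains B cell signalling, had 3 and 2 counts in 66cl4 against 292 to 6739 elsewhere. Ltc4s, the enzyme that makes leukotriene C4, had 2 and 1 counts against 113 to 1147, and 26.4% of its exon bases overlap a gene on the other strand. Ccnb1ip1, a cyclin B ubiquitin ligase with a role in meiosis, had 0 in both 66cl4 libraries against 64 to 151. Against a floor of 3 counts per library it was at least 26.1-fold lower.

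Genes tied to NF-kappaB signalling were near the background as a list. Put together after the values were seen, it held 35 tested genes, of which 13 were called higher and 12 lower (33.8% and 31.5% of all genes), with 7 above the range and 8 below (20.3% and 18.3% of all genes). Those below included Birc3, a ubiquitin ligase that limits cell death, at 0.177 and 0.0446 CPM against 8.24 to 38.7 CPM, and its partner Traf1 at 2.89 and 4.15 CPM against 30.2 to 60.4 CPM (log2 fold change -3.70 ± 0.14, edgeR adjusted p = 1.36e-08). Vcam1 (chr3:116110020-116129688), an adhesion molecule for leucocyte integrins, stood at 5.13 and 4.84 CPM in 66cl4, 34.7 and 34.6 in 67NR, 140 and 152 in 4T1 and 99.6 and 99.8 in 4T1.2. Of the subunits, Rela, with a log2 fold change of 0.05 ± 0.10, was not called (edgeR adjusted p = 0.645). Tnfrsf1b, a receptor for TNF, was above the range at 144 and 141 CPM against 64.8 to 84.5 CPM (0.99 ± 0.06).

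Of 38 TGF-beta and BMP pathway genes tested, 24 were called higher in 66cl4 and 5 lower, against 33.8% and 31.5% of all genes, and 14 lay above the range and 3 below, against 20.3% and 18.3%. The count called lower was 8 with DESeq2 and 9 with limma-voom. Bmp4, a secreted ligand, stood at 577 and 570 CPM in 66cl4, 216 and 206 in 67NR and 0.0328 to 0.216 in the 4T1 pair. The level in 67NR was thus far nearer that of 66cl4 than in the 4T1 pair. Smad6, an inhibitor of the pathway, was 160 and 161 CPM against 8.65 to 32.3 CPM (log2 fold change 3.23 ± 0.07, edgeR adjusted p = 2.15e-10), and Id1, a helix-loop-helix inhibitor of differentiation, 387 and 412 CPM against 132 to 133 CPM in 67NR and 41.4 to 88.1 CPM in the 4T1 pair. Id3 was 375 and 422 CPM against 126 to 170 CPM, with 67NR within the range of the 4T1 pair. Bmp7 went the other way, at 0 and 0.0223 CPM in 66cl4, 0.0546 and 0.0648 in 67NR and 19.2 to 34.4 in the 4T1 pair, and Tgfb1 was also below the range (-0.83 ± 0.11).

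Of 38 cell division genes tested, 5 were called higher and 22 lower, against 33.8% and 31.5% of all genes, and 3 lay above the range and 14 below, against 20.3% and 18.3%. The median log2 fold change of the list was -0.24, against 0.01 over all genes. Tested against a log2 fold change of 1, 1 gene of the list was called higher and 0 lower. Ccna2 (cyclin A2), needed for S phase and mitotic entry, stood at 172 and 180 CPM against 345 to 377 CPM, a log2 fold change of -1.04 ± 0.07 (edgeR adjusted p = 1.13e-06). Ccne2 was 17.7 to 25.0 CPM against 37.7 to 55.2 CPM and Pcna, the replication clamp, 193 to 207 CPM against 236 to 460 CPM (-0.73 ± 0.09). Of the 75-base stretches of Pcna, 23.7% are shared with other genes. Ccnd2 (cyclin D2), which opens G1, was among the 5 called higher, at 339 and 358 CPM against 58.0 to 147 CPM (2.12 ± 0.06). The long transcripts Mki67, Cenpe and Cenpf differed in direction between the 66cl4 libraries: Mki67 stood at 914 and 307 CPM, with 468 to 644 CPM in the others, and was not called (0.19 ± 0.30, edgeR adjusted p = 0.613). Without replicate 1 its log2 fold change was -0.81 and without replicate 2 it was 0.77, and both were called. Left out in turn, single libraries of any line gave 18 to 23 genes called lower.

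Of 23 epithelial genes tested 19 were called lower and 1 higher, against 31.5% and 33.8% of all genes. With 67NR and the mean of the 4T1 pair weighted equally, 16 were called lower. In the range rule 4 lay below (17.4%, against 18.3% of all genes) and 0 above. The 1 called higher, Krt18, lost its call without either 66cl4 library or without 67NR replicate 1. Ocln, a tight junction protein, was one of the 4 below the range, at 0.442 and 0.290 CPM in 66cl4, 4.58 and 3.45 in 67NR and 16.7 to 51.3 in the 4T1 pair. Of 23 mesenchymal genes 13 were called higher and 0 lower by edgeR (1 lower by DESeq2 and 1 by limma-voom), and 11 lay above the range (47.8%, against 20.3%). For several of these 67NR was near, among them Snai2, a repressor of epithelial genes, and Cdh2, N-cadherin. Snai2 was 93.3 to 107 CPM in 66cl4 and 68.4 to 73.4 CPM in 67NR, and Cdh2 was 88.8 to 99.5 CPM in 66cl4 and 81.2 to 82.7 CPM in 67NR. Twist2, another such repressor, was nearer still, at 32.6 and 32.9 CPM in 66cl4 and 27.3 and 28.6 CPM in 67NR. Its counts are uncertain, as 56.9% of its 75-base stretches are shared with other genes and 46.5% of its exon bases overlap a gene on the other strand. Acta2, smooth muscle actin, set 66cl4 further apart, at 3.42 and 3.39 CPM against 0.0529 to 0.846 CPM (3.88 ± 0.20). Vim, at 3540 and 3012 CPM, was within the range of the other lines and not called (-0.27 ± 0.16, edgeR adjusted p = 0.154), but was called lower without 4T1 replicate 1 (-0.35). Trp63, a basal lineage factor, stood at 137 CPM in both 66cl4 libraries against 29.9 to 34.6 CPM in 67NR and 0.129 to 0.387 CPM in the 4T1 pair. Krt14, a basal keratin, was near the limit of detection and below the range, at 0.110 and 0.134 CPM against 0.164 to 0.755 CPM (-1.81 ± 0.37).

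The lists of matrix genes and proteases are read against 33.8% called higher and 31.5% lower over all genes, and 20.3% above and 18.3% below the range. Among 32 collagens tested 14 were called higher and 9 lower, 8 above the range and 4 below. Col5a2, a fibrillar chain, stood at 37.0 and 31.2 CPM in 66cl4 against 1.2 and 1.69 in 67NR and 0 to 0.0431 in the 4T1 pair. Of the collagen VI chains, Col6a1 stood at 475 and 382 CPM against 17.5 to 202 CPM and Col6a2 at 151 and 134 CPM against 0.280 to 74.5 CPM. Among 28 proteases and inhibitors 10 were called higher and 12 lower, 7 above the range and 8 below. Mmp3, stromelysin, stood at 8.42 and 8.44 CPM in 66cl4, 12.5 and 12.8 in 67NR and 1322 to 1724 in the 4T1 pair. Adamts1, a secreted metalloprotease that cleaves proteoglycans, was 634 and 607 CPM against 28.8 to 118 CPM (log2 fold change 3.60 ± 0.08), whereas Mmp9, a gelatinase, was 0.464 and 0.223 CPM against 2.14 to 216 CPM. Among 26 integrins and laminins 10 were called higher and 9 lower, 6 above and 3 below. Itgb5, a beta chain of vitronectin receptors, stood at 521 and 491 CPM against 85.5 to 140 CPM (2.27 ± 0.07).

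The remaining lists also had genes on both sides of the range, against 20.3% above and 18.3% below over all genes. Cytokines and chemokines had 7 of 31 above the range and 5 below, angiogenic and lymphangiogenic factors 7 and 2 of 30, Wnt pathway genes 6 and 5 of 28, and glutathione and NRF2 genes 5 and 5 of 33. Il7, a lymphocyte growth factor, was 39.1 and 34.5 CPM in 66cl4, 11.6 and 14.1 in 67NR and 0.264 to 1.34 in the 4T1 pair. Wnt7b stood at 18.9 and 17.7 CPM against 67.1 to 355 CPM (log2 fold change -3.33 ± 0.09), and Mgst2, a microsomal glutathione transferase, at 6.50 and 6.23 CPM against 41.7 to 92.5 CPM (-3.17 ± 0.17). Nqo1, a quinone reductase and target of NRF2, was below the range at 18.2 and 19.3 CPM against 28.9 to 60.6 CPM (-1.31 ± 0.08), whereas Gstm1, a cytosolic glutathione transferase, was above it at 163 and 159 CPM against 28.5 to 111 CPM, with 14.8% of its 75-base stretches shared with other genes. Of 19 genes of the p53 pathway 17 were called higher, against 33.8% of all genes, and 11 when 67NR and the mean of the 4T1 pair were weighted equally, while 3 lay above the range. Trp53 itself was 187 and 218 CPM in 66cl4, 233 and 241 in 67NR and 38.6 to 52.7 in the 4T1 pair. Of 9 basal and luminal lineage genes tested 3 lay above and 2 below.

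Among genes above the range with a log2 fold change of at least 1, the highest level per transcript length was that of Spp1 (osteopontin), a secreted phosphoprotein of bone and tumours, at a mean of 3042 reads per kilobase of transcript in CPM units (RPKM) in 66cl4. Its CPM were 5467 and 4621 in 66cl4, 3199 and 2958 in 67NR, 600 and 806 in 4T1 and 872 and 949 in 4T1.2 (log2 fold change 2.01 ± 0.12, edgeR adjusted p = 2.62e-07). Ccn1, a matricellular protein, and Ankrd1, a muscle ankyrin protein, both known targets of YAP, stood at 837 and 724 RPKM in 66cl4. Ccn1 was 1591 and 1802 CPM against 193 to 1085 CPM, and Ankrd1 1194 and 1360 CPM against 312 to 551 CPM. Cd24a, a small surface glycoprotein, was 1287 and 1311 CPM against 352 to 1091 CPM, and Ly6e, a surface protein induced by interferon, 1177 and 1190 CPM, just above the 1148 and 1167 CPM of 67NR. Below the range with a fall of at least 1 were Lgals1, galectin-1, at 1445 and 1376 CPM against 1482 to 11906 CPM, and Ctsl, a lysosomal protease, at 728 and 716 CPM against 1100 to 4312 CPM (-1.61 ± 0.10). Eno1b and Ndufb9 also met these limits, but 79.6% and 20.3% of their 75-base stretches are shared with other genes. For Ctsl the share is 26.5%, and 26.8% of its exon bases overlap a gene on the other strand.

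The share of genes set apart differed between chromosomes (the plot by chromosome), of which the mitochondrial one, with 13 genes tested, had 0. Of the nuclear chromosomes, 16 had the largest share above the range, 123 of 424 genes (29.0%), with chromosome X next at 28.2%, and chromosome 3 the smallest at 62 of 668 (9.28%). Below the range the order was nearly turned round, with chromosome 3 at 27.5%, chromosome 14 at 27.3% and X lowest at 8.18%. The median log2 fold change was 0.31 on X and 0.25 on chromosome 16, against -0.33 on chromosome 14 and -0.16 on chromosome 3. Of the runs below the range, the longest was on chromosome 3, 5 genes from Qrfpr to Ccna2 (chr3:36179426-36573038), which includes Exosc9, a subunit of the RNA exosome, at 18.7 and 17 CPM against 45.5 to 54.0 CPM. Whether DNA copy number moved with these shares was not tested.

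**Figure D5:**
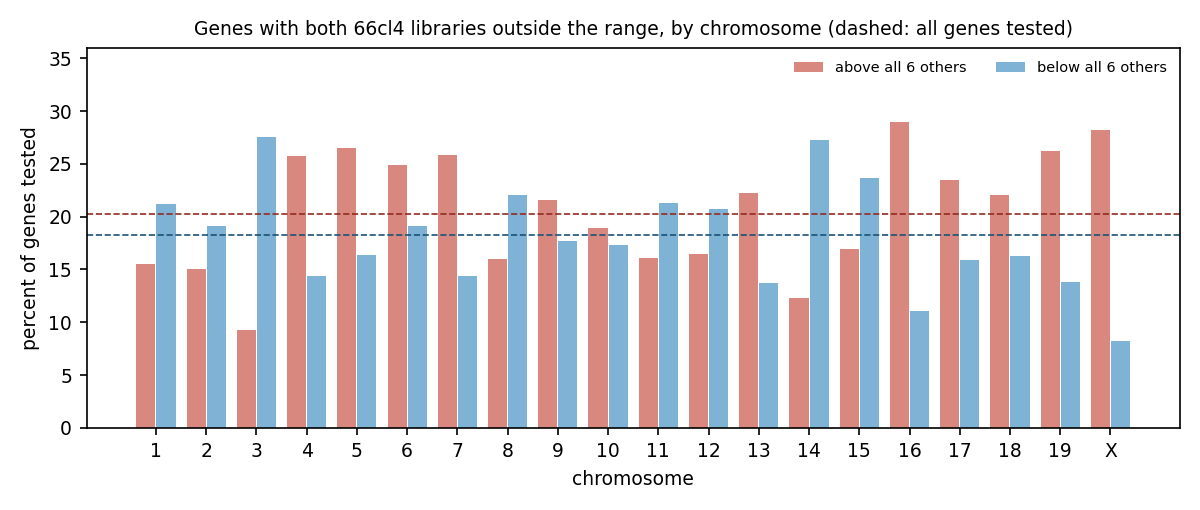
Percent of the tested genes of each chromosome (x axis) with both 66cl4 libraries above (red) or below (blue) all 6 others, with dashed lines at the shares over all genes, 20.3% and 18.3%. The red bar is highest on chromosome 16 at 29.0% and the blue bar on chromosome 3 at 27.5%.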

How the data were processed

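RNA from 8 cultures, 2 biological replicates of each of 4 lines, was sequenced by the authors after Illumina TruSeq RNA v2 library preparation. Per the study's methods the reads were aligned to mm10 with Rsubread and assigned to NCBI genes with featureCounts. The strand setting is not given in the sources used here. The deposited values are raw counts per gene, and the 8 files of single libraries held the same values as the series matrix. Of 27179 genes, 25275 (93.0%) matched the RefSeq gene table by identifier.

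Genes that did not match, predicted genes, ribosomal genes and genes off the assembled chromosomes were removed. In the whole matrix, filterByExpr kept 15269 genes, and 13924 remained after both steps. Library sizes were scaled by TMM in edgeR 4.0.16 (R 4.3.3). The quasi-likelihood test compared 66cl4 with the mean of the 3 other line means, all 8 libraries sharing 1 estimate of spread (4 residual degrees of freedom), with Benjamini-Hochberg adjustment at 0.05. A gene was outside the range when both 66cl4 libraries lay above, or both below, the 6 others in normalised CPM. RPKM used the gene length in the matrix. Distances from the range used log2 CPM with 0.5 added. DESeq2 1.42.0 and limma 3.58.1 were alternatives.

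Genes qualified to be named among those outside the range and called, by the largest fold change (12 per direction), the highest RPKM (6), up to 5 of each list, the longest runs, and the genes at the limit, beside those near 0 counts in 66cl4 or in all others, and not all that qualified are described. List genes that were not outside the range, the ranking by distance, the GAAANNGAAA motif, 2 lists (NF-kappaB; interferons, receptors and sensors) and other list members described in the text were chosen after their values were seen. The members and lists were chosen with earlier results of these data known. Sharing of sequence was measured as the percent of 75-base stretches of a gene's longest transcript that occur in transcripts of other genes. It is given for some genes only, so a gene named without it may also share sequence. The p-values set a difference against the spread between cultures of a line, pooled over the lines, and not against a spread between independent lines. Counting intervals were not used. Results of a few genes are not reported or drawn here, though they are counted in the totals.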

Additional observations from a re-analysis of the deposited data

How the results depend on the processing

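The counts of genes called higher and lower were 4655 and 4427 with DESeq2 size factors, 4950 and 4003 with library totals, 4560 and 4596 with DESeq2 and 4684 and 4613 with limma-voom. Tested against a log2 fold change of 1, 1381 genes were higher and 1113 lower. Requiring a distance of at least 1.5-fold from the range left 643 genes above it and 364 below. With single libraries left out in turn, 3991 to 4942 genes were called higher and 3656 to 4604 lower, and 2874 to 3455 lay above the range and 2602 to 3224 below, since a range over fewer libraries is easier to leave.

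Replicate numbers are shared between the lines, but the correlation of same-numbered deviations ran from -0.123 to 0.27, above 0.1 only for 4T1.2 with 4T1 (0.27), and the numbers were not taken to pair the libraries. With the replicate block, 4770 genes were called higher and 4456 lower. Of 4144 values of 212 genes followed under the alternatives, 4125 kept their direction and side of the threshold. The log2 fold change of Jak2 was 0.009016 when 67NR and the mean of the 4T1 pair were weighted equally, and its call was lost. In Mki67, Cenpe and Cenpf the sign depended on which 66cl4 library was left out. Among the lists, the 1 epithelial gene called higher was lost without either 66cl4 library or 67NR replicate 1, leaving 0. Wnt pathway genes called lower were 13 with DESeq2 and 13 with limma-voom, against 8. Asking for at least 10 counts in every library reduced the number of genes tested in many lists. Among complement genes it took the counts from 11 higher and 3 lower of 16 to 5 higher and 3 lower of 9.

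Each line had 2 libraries, and 4T1.2 and 4T1 are not independent lines, so the mean of the other lines leans towards that pair. Weighting 67NR and the mean of the 4T1 pair equally gave 4337 genes higher and 4047 lower. The 66cl4 libraries differed in long, AT-rich transcripts and in some mitochondrial genes, and genes with near-copies or overlapping neighbours are uncertain.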
